A study of Mus musculus with 4 samples.

Results

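The genes described here are macrophage surface receptors, complement C1q subunits and other macrophage identity genes, measured by RNA-seq in mouse marrow monocytes on day 3 of osteoclast induction. The 37 genes were chosen by name and role, with earlier results of these data known. Of these, 36 were in the deposited table of 12799 genes. Tlr9 was not analysed here. Knockout cells came from 12-week-old female Csf1r-iCre;Piezo1fl/fl mice (n = 2 libraries). Control cells came from 12-week-old female Piezo1fl/fl mice without the recombinase (n = 2), so both genotypes carried the loxP-flanked alleles and differed in the Csf1r-iCre transgene as well as in Piezo1. Csf1r, whose promoter drives the recombinase, encodes the M-CSF receptor and is active throughout the monocyte and macrophage lineage; effects of the transgene and of Piezo1 loss cannot be told apart. In both groups, marrow cells that had not adhered after 2 days were carried into M-CSF at 30 ng/mL, and RNA was taken after 3 days with M-CSF at 30 ng/mL and RANKL, the osteoclast-inducing cytokine, at 50 ng/mL. Each library is described as a biological replicate, and whether it came from 1 mouse or from several is not stated.

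Read totals recovered from the deposited values were 14997205 and 18897927 in the knockouts and 15320308 and 14122118 in the controls, and 1 read was worth 0.0544 to 0.0700 CPM, the read count scaled to a common library size that is the unit of every level below. Piezo1, a stretch-gated cation channel, averaged 58.6 ± 3.41 CPM in the knockouts and 407 ± 32.2 CPM in the controls (SD, n = 2 each), so the libraries matched their genotype labels. The osteoclast markers were abundant in all 4 libraries: Ctsk, the collagen-degrading cathepsin K, was the first of 12685 genes ordered by CPM per kb of merged exon.

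Macrophages and osteoclasts share a precursor. M-CSF keeps the precursor alive and on a macrophage course, and RANKL, acting through RANK, redirects it toward fusion and bone resorption, a change in which many macrophage genes are known to be turned down. Macrophages recognise antibody-coated particles through Fc receptors, modified lipoproteins and dying cells through scavenger and TAM receptors, and microbial products through Toll-like receptors, while receptors with inhibitory motifs recruit the phosphatases SHP-1 and SHIP1 to damp these signals. C1q, which starts the classical complement cascade, is made largely by macrophages. The labels hold no library from before RANKL, so the levels below describe what was present at day 3 and give no loss or gain over time.

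No macrophage gene passed the test between genotypes. Of the 36 genes, 34 reached 1 CPM in at least 2 libraries and entered limma, and 0 of these 34 passed at a Benjamini-Hochberg adjusted p under 0.05, where 0.161% of all 11781 tested genes passed. None of the 34 had an unadjusted limma p under 0.05 either, against 4.9% of all tested genes, and edgeR and DESeq2 also called 0, each with 0 at an unadjusted p under 0.05. In limma with the replicate number added as a block, which no source says pairs the libraries, 1 of the 34, Mertk, had an unadjusted p under 0.05, as did 5.06% of all tested genes. Its limma adjusted p there was 0.537, and 0 of the 34 passed, beside 0.755% of all tested genes. The limma adjusted p was 0.99975 for each of the 34. Their median log2 fold change, knockout over control, was 0.03, beside 0.002 over all tested genes, with 21 positive and 13 negative and a range of −0.26 for Fcgr1 to 0.65 for Mertk. Knockout and control values did not overlap in 4 of the 34 (11.8%), C1qa, Maf and Ptpn6 with higher values and Tlr2 with lower values in the knockouts, whereas 31.9% of all tested genes did not overlap.

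**Figure D1:**
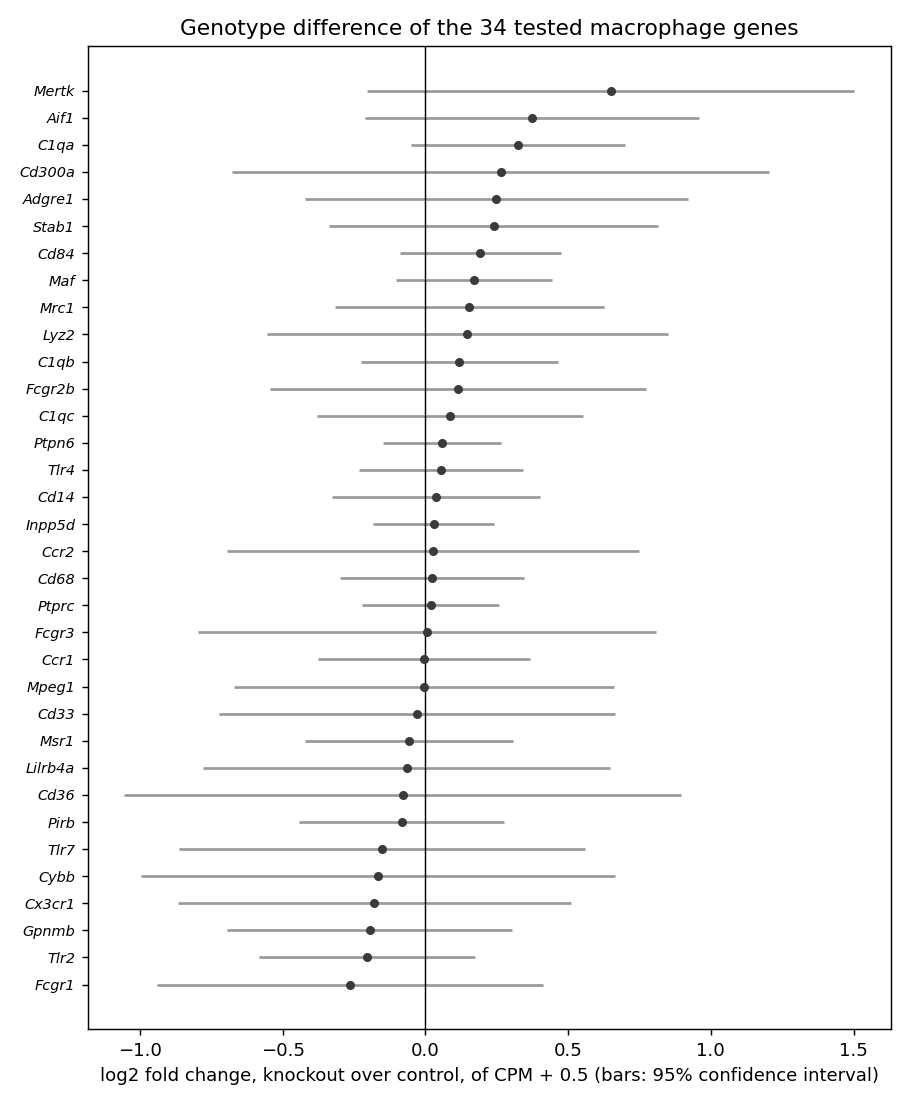
Log2 fold change of knockout over control on the log2(CPM + 0.5) scale for the 34 tested macrophage genes, ordered from highest to lowest; points are limma estimates over 2 knockout and 2 control libraries and bars are 95% confidence intervals. All 34 intervals cross 0, and the narrowest belong to Ptpn6, Inpp5d and Ptprc.

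A p that misses the threshold does not show equal levels, and the intervals give what these libraries could resolve. The lowest confidence limit of the 34 was −1.06, for Cd36, and the highest was 1.502, for Mertk. For 31 of the 34 the whole 95% interval lay within 1 log2 unit of 0, and for 12 it lay within 0.5. Ptpn6, which encodes the phosphatase SHP-1, had the narrowest interval, −0.15 to 0.27, and Inpp5d, which encodes SHIP1, followed with −0.18 to 0.24. An exact permutation test of a single gene with 2 libraries against 2 cannot go below p = 0.333. Because the RNA came from bulk cultures, fewer cells of a type and less RNA per cell cannot be told apart.

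Levels ranged widely among the 36 genes. Per kb of merged exon, which allows genes of different length to be compared, 5 had a mean over the 4 libraries above 100 CPM per kb, 25 lay between 1 and 100, and 6 were below 1. Their median was 10.7 CPM per kb, beside 4.56 over the 12685 genes with a length, 8 of them lay in the top 10% of genes, and 7 lay in the lowest 25%. Cd68, a glycoprotein of late endosomes and lysosomes that osteoclasts also express, was the highest at 1018 and 1279 CPM per kb in the knockouts and 1136 and 1109 CPM per kb in the controls, the 16th of all genes in order of level. Its mean was 7.07% of the Ctsk mean on the same scale. In CPM it averaged 1443 ± 232 in the knockouts and 1411 ± 24.7 in the controls (log2 fold change 0.02, 95% interval −0.30 to 0.34), and the knockout values lay on either side of both controls. Summed over all 36, the macrophage genes took 0.796% and 0.637% of the signal in the knockouts and 0.755% and 0.710% in the controls. In CPM the sums were 7876 and 6545 in the knockouts and 7512 and 7020 in the controls. A large part was Gpnmb and Cd68, which osteoclasts also express. Gpnmb held 2620 and 1652 CPM in the knockouts and 2247 and 2524 in the controls. Cd68 held 1279 and 1607 CPM in the knockouts and 1429 and 1394 in the controls.

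**Figure D2:**
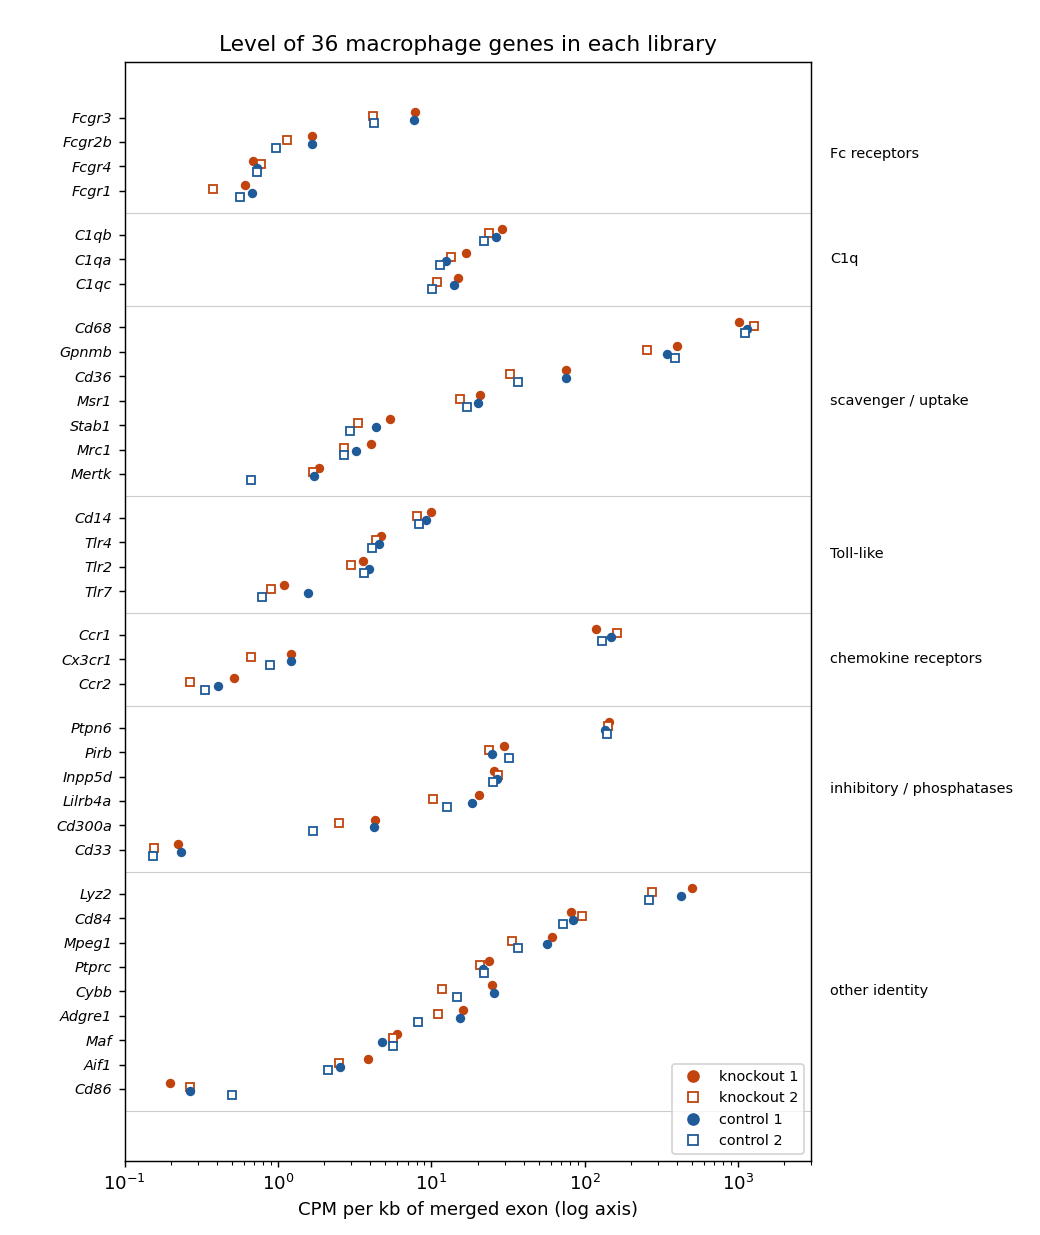
CPM per kb of merged exon (log axis) for the 36 macrophage genes, grouped by role and ordered by mean level within a role; orange marks are knockout and blue marks control libraries, filled circles library 1 and open squares library 2. Cd68, Lyz2, Gpnmb, Ptpn6 and Ccr1 are the 5 highest and Cd33, Cd86 and Ccr2 the 3 lowest, and filled circles lie to the right of open squares for most genes in both colours.

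Among the Fc receptors, which bind the constant part of IgG, Fcgr3, an activating receptor of low affinity, was the most abundant per kb of exon. It was at 13.6 and 7.23 CPM in the knockouts and 13.4 and 7.28 CPM in the controls. These are nearly the same values in each genotype, with the libraries of a genotype differing 1.88-fold in the knockouts and 1.84-fold in the controls (log2 fold change 0.01, SE 0.34). Fcgr2b, the inhibitory receptor of the family, was at 9.70 and 6.58 CPM in the knockouts and 9.61 and 5.60 CPM in the controls. The high-affinity receptor gene Fcgr1 averaged 1.28 ± 0.43 CPM in the knockouts and 1.61 ± 0.20 CPM in the controls. Fcgr4 did not reach the level needed for the test: it had 13 and 18 reads in the knockouts and 14 and 13 reads in the controls, or 0.858 and 0.978 CPM against 0.909 and 0.910 CPM. The exact 95% Poisson intervals of these 4 values, which cover counting error only, all overlap and span 0.457 to 1.56 CPM. Fcgr2b, Fcgr4 and Fcgr3 lie within 106 kb of chromosome 1 (GRCm38, 170958617 to 171064935) and are similar in sequence, so reads could have been divided between them.

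The C1q genes, whose A, B and C chains assemble together into the C1q molecule, were all measured well above the floor of 3 reads. C1qa (chromosome 4, 136895917 to 136898803, minus strand) had the smallest unadjusted p of the 34, 0.081 in limma. It was at 17.5 and 13.9 CPM in the knockouts and 12.9 and 11.8 CPM in the controls, so that both knockout values were above both control values (log2 fold change 0.32, SE 0.16, 95% interval −0.05 to 0.70). C1qb was at 31.4 and 25.7 CPM in the knockouts and 28.6 and 23.9 CPM in the controls, and C1qc at 28.6 and 20.98 CPM against 27.1 and 19.6 CPM, both with overlapping groups. C1qa made up 22.8 ± 0.27% of the summed C1q CPM in the knockouts and 20.1 ± 1.81% in the controls (SD, n = 2 each), C1qb 41.5 ± 1.33% and 42.4 ± 1.02%, and C1qc 35.75 ± 1.601% and 37.45 ± 2.83%. The genes lie side by side within 18.7 kb of chromosome 4. Their sum was 77.5 and 60.6 CPM in the knockouts and 68.6 and 55.3 CPM in the controls.

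Promoters of these genes can be read beside their levels. PU.1, the transcription factor that defines the myeloid lineage, binds sequences that hold the core GAGGAA, and 27 of the 36 genes matched an entry among the RefSeq promoters on GRCm38.p6. The core, searched on both strands in the 250 bases upstream of each start, was present in 15 of these 27 genes (16 of their 29 listed starts) and in 23.3% of the 32851 promoters listed for all genes. The AP-1 motif TGANTCA occurred in 3 of the 27 genes, Cd68, Cd84 and Cybb, against 6.75% of all promoters, and the E-box CACGTG in 0 of them, against 6.02%. None of these motifs contains another, and a match is a description of the sequence and not a site of binding. The sequences printed are those of Cd68, the gene of highest level, of the C1q genes with a matched entry, and of Cd36, Cd300a, Lyz2 and Cybb, the 4 genes with a single listed start among the 5 whose log2 difference between libraries was at least 0.7 in both genotypes. Each is written 5′ to 3′ on the strand of its gene and ends at the base before the start; capitals mark GAGGAA or its complement TTCCTC.
Cd68 (GRCm38.p6, chr11:69666171-69666420, minus strand): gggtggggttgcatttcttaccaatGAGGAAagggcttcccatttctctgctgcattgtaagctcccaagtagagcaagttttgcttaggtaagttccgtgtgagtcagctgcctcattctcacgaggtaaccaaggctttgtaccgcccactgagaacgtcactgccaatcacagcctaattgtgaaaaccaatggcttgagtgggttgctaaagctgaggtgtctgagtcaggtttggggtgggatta
C1qb (GRCm38.p6, chr4:136886201-136886450, minus strand): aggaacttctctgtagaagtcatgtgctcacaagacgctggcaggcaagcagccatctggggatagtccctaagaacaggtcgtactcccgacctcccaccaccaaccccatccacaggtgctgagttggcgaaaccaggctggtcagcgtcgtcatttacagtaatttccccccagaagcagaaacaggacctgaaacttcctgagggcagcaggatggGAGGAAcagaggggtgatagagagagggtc
C1qc (GRCm38.p6, chr4:136892915-136893164, minus strand): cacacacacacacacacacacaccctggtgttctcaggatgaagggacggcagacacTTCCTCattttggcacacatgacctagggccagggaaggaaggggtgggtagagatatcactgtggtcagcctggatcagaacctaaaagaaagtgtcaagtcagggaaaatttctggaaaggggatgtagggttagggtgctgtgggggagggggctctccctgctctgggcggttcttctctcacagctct
Cd36 (GRCm38.p6, chr5:17835897-17836146, minus strand): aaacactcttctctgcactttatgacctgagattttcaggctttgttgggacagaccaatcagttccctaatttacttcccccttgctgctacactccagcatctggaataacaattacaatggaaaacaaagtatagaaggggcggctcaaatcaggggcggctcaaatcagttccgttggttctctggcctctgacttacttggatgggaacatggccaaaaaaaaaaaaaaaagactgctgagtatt
Cd300a (GRCm38.p6, chr11:114889791-114890040, plus strand): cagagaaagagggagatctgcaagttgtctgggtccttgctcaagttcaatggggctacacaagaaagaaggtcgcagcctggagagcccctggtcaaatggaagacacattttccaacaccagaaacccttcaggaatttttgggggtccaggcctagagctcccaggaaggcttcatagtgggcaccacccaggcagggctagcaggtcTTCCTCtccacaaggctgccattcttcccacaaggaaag
Lyz2 (GRCm38.p6, chr10:117282273-117282522, minus strand): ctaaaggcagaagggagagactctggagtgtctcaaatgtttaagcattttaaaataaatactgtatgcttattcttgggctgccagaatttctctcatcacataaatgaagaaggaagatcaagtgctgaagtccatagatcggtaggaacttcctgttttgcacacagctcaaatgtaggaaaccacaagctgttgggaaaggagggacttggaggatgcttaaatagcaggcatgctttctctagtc
Cybb (GRCm38.p6, chrX:9469325-9469574, minus strand): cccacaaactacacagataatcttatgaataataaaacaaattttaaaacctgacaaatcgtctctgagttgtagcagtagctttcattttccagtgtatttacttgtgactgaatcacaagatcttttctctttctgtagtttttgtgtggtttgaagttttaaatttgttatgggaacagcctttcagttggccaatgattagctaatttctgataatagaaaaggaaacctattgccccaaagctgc
The core begins 225 bases before the start in Cd68, 30 in C1qb, 193 in C1qc and 39 in Cd300a, and these letters are not in the windows of Cd36, Lyz2 and Cybb. Among the 5 genes with a log2 difference between libraries of at least 0.7 in both genotypes, Cd300a and Fcgr3 had the core. Whether the core goes with that difference was not tested.

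Among scavenger and uptake receptors, the next after Cd68 per kb was Gpnmb. Gpnmb, a membrane glycoprotein that osteoclasts also make, was at 2620.2 and 1652 CPM in the knockouts and 2247 and 2524 CPM in the controls, and the knockout values lay above and below both controls (log2 fold change −0.19, SE 0.21). Cd36, a receptor for oxidised lipoproteins and fatty acids, was at 269.9 and 117 CPM in the knockouts and 269 and 131 CPM in the controls. Its groups overlapped almost entirely, with 2.31-fold and 2.06-fold differences inside each genotype, which gave it the widest interval of the 34 (−1.06 to 0.90). Msr1, scavenger receptor A, averaged 114 ± 24.6 CPM in the knockouts and 118 ± 14.3 CPM in the controls. Stab1, the scavenger receptor stabilin-1, was at 54.8 and 34.1 CPM in the knockouts and 44.5 and 30.1 CPM in the controls (log2 fold change 0.24, unadjusted p = 0.364); its exons overlap those of Nt5dc2 on the opposite strand, and without a stated strand setting their reads cannot be told apart. The mannose receptor gene Mrc1 averaged 21.4 ± 6.09 CPM in the knockouts and 18.9 ± 2.38 CPM in the controls. Mertk, a TAM-family kinase that recognises dying cells, had the largest fold change in size (0.65, SE 0.37, 95% interval −0.20 to 1.502, unadjusted p = 0.116). It was at 7.99 and 7.28 CPM in the knockouts and 7.47 and 2.87 CPM in the controls, so that control 2 alone was low, and its log2 fold change was 0.03 without control 2. It was 1.27 without control 1 (limma adjusted p = 0.423), where Mertk was among the genes at an unadjusted p under 0.05.

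The Toll-like receptor genes and Cd14 had log2 fold changes between −0.20 and 0.05. Tlr2, the receptor for bacterial lipopeptides, was at 10.8 and 8.97 CPM in the knockouts and 11.9 and 10.9 CPM in the controls, the sole macrophage gene with both knockout values below both controls (log2 fold change −0.20, SE 0.16, unadjusted p = 0.247). Tlr4, the receptor for lipopolysaccharide, averaged 24.98 ± 1.26 CPM in the knockouts and 24.1 ± 1.87 CPM in the controls. Cd14, which hands lipopolysaccharide to Tlr4, averaged 15.6 ± 2.34 CPM in the knockouts and 15.1 ± 1.15 CPM in the controls. Tlr7, the endosomal receptor for single-stranded RNA, was at 4.49 and 3.64 CPM in the knockouts and 6.36 and 3.22 CPM in the controls, the controls lying on either side of both knockouts. From the wider list of Toll-like receptor signalling genes, which leaves these out, 24 of 26 were tested and none was called by any of the 3 tools, with 0 at an unadjusted limma p under 0.05 and a median log2 fold change of −0.002. The smallest p there was that of Cd180, a Toll-like protein that pairs with Ly86, at 47.9 ± 2.38 CPM in the knockouts and 55.7 ± 1.66 CPM in the controls (log2 fold change −0.21, unadjusted p = 0.0663).

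Chemokine receptors differed far more from each other than between genotypes. Ccr1, a receptor for CCL3 and CCL5, was at 333 and 462 CPM in the knockouts and 422 and 367 CPM in the controls, and per kb was the fifth of the 36 genes, at a mean of 139.8 CPM per kb. By contrast Ccr2, the receptor that draws monocytes toward CCL2, was at 3.50 and 1.79 CPM in the knockouts and 2.73 and 2.24 CPM in the controls, with a mean of 0.379 CPM per kb. Cx3cr1, the fractalkine receptor of resident phagocytes, averaged 4.23 ± 1.76 CPM in the knockouts and 4.72 ± 1.04 CPM in the controls. Ccr1 and Ccr2 lie within 151 kb of each other on chromosome 9. Of the other chemoattractant receptors listed, 7 of 15 were in the table and 6 were tested, with 0 passing in each of the 3 tools and 0 at an unadjusted limma p under 0.05.

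Among inhibitory receptors and their phosphatases, the phosphatase genes varied least between libraries. Ptpn6 was at 404 and 399 CPM in the knockouts and 380.2 and 391 CPM in the controls. Those values do not overlap, and the knockout mean was 104.1% of the control mean (log2 fold change 0.06, unadjusted p = 0.534). Inpp5d averaged 201 ± 8.66 CPM in the knockouts and 197 ± 9.18 CPM in the controls. Pirb, an inhibitory receptor for class I histocompatibility molecules, averaged 120.0 ± 19.7 CPM in the knockouts and 127 ± 22.6 CPM in the controls. Lilrb4a, another receptor with inhibitory motifs, was at 108 and 53.9 CPM in the knockouts and 96.5 and 65.9 CPM in the controls, a 2.00-fold and a 1.47-fold spread inside the genotypes. Reads of Pirb and Lilrb4a can be shared with near-identical paralogs, so these values are uncertain. Cd300a, a receptor for phosphatidylserine and phosphatidylethanolamine, was at 20.2 and 11.8 CPM in the knockouts and 20.1 and 8.05 CPM in the controls. Cd33, a sialic acid-binding lectin, was the lowest of the 36 per kb, at 1.72 and 1.20 CPM in the knockouts and 1.82 and 1.19 CPM in the controls. In the wider list of such receptors and phosphatases, 19 of 22 were tested, 0 passed in the 3 tools, and 1 of the 19 had an unadjusted limma p under 0.05, against 4.9% of all tested genes. That gene was Cd5l, a secreted macrophage protein, at 2.84 and 1.96 CPM in the knockouts and 0.909 and 0.910 CPM in the controls (log2 fold change 1.02, limma adjusted p = 0.549). It had 43 and 36 reads in the knockouts and 14 and 13 reads in the controls, and DESeq2 gave it no adjusted p. Only its knockout values reached 1 CPM, so it entered the test through the group where it was higher. Its place beside the share of all genes is therefore no free test.

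The remaining identity genes included Lyz2, the myeloid lysozyme, at 655 and 360.4 CPM in the knockouts and 561 and 344 CPM in the controls, the second of the 36 genes per kb. Adgre1, which encodes the F4/80 antigen, was at 51.7 and 35.99 CPM in the knockouts and 49.9 and 26.3 CPM in the controls. Cybb, the catalytic subunit of the phagocyte NADPH oxidase, was at 144.9 and 68.5 CPM in the knockouts and 148 and 84.7 CPM in the controls, and Mpeg1, the pore-forming perforin-2, was at 265 and 146 CPM in the knockouts and 245 and 159 CPM in the controls. In each of these 4 genes library 1 was above library 2 in both genotypes. Cd84, a receptor of the SLAM family, was at 514 and 599 CPM in the knockouts and 523 and 450.4 CPM in the controls, so the groups overlapped (log2 fold change 0.19, unadjusted p = 0.152). Maf, a transcription factor of mature macrophages, was at 49.4 and 46.6 CPM in the knockouts and 39.2 and 46.3 CPM in the controls, with both knockout values above both controls, though knockout 2 exceeded control 2 by a small margin (log2 fold change 0.17, unadjusted p = 0.189). Aif1, the actin-bundling protein known as Iba1, was at 5.87 and 3.81 CPM in the knockouts and 3.90 and 3.22 CPM in the controls, where knockout 2 lay between the controls (log2 fold change 0.37, unadjusted p = 0.177). Ptprc, the leukocyte antigen CD45, averaged 406 ± 40.5 CPM in the knockouts and 400.02 ± 2.99 CPM in the controls. Cd86, a co-stimulatory ligand for T cells, was not tested: it had 11 and 18 reads in the knockouts and 15 and 26 reads in the controls, or 0.726 and 0.978 CPM against 0.974 and 1.82 CPM.

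The larger differences lay between the libraries of each genotype. Knockout 1 was above knockout 2 in 30 of the 34 tested macrophage genes, and control 1 was above control 2 in 29; over all tested genes the shares were 49.9% and 49.6%. Library 1 was above library 2 in both genotypes in 25 of the 34 (73.5%) and below it in both in 0, whereas 21.5% of all tested genes were above in both. The median difference, library 1 minus library 2 on the log2(CPM + 0.5) scale, was 0.44 in the knockouts and 0.25 in the controls, with medians of −0.001 and −0.002 over all tested genes. A ratio above 1.4 in both genotypes was found in 11 of the 34, namely Fcgr2b, Fcgr3, Stab1, Cd36, Cd300a, Cd33, Lilrb4a, Adgre1, Lyz2, Cybb and Mpeg1, and in 1.71% of all tested genes. Of these 11, Cd33 rests on 26 and 22 reads in the knockouts and 28 and 17 reads in the controls. Counting error is not taken into account in the ratios. In 25 of the 34 (73.5%) both within-genotype differences were larger in size than the genotype difference, against 46.4% of all tested genes. These are unlike measures: a within-genotype difference is between single libraries, and the genotype difference is between means of 2. The median absolute sizes were 0.456 in the knockouts, 0.254 in the controls and 0.116 between genotypes. Over all tested genes they were 0.155, 0.143 and 0.095. The genes that went opposite ways in the genotypes numbered 9, among them Cd68, Ccr1, Gpnmb, Ptpn6 and Cd84. The shares with library 1 above in both genotypes were smaller in the wider lists of macrophage-related genes. They were 50% for transcription factors and for chemoattractant receptors, 45.8% for Toll-like receptor signalling and 42.1% for inhibitory receptors and phosphatases. They were 33.3% for the NADPH oxidase, 31.25% for scavenger and efferocytosis genes, 25% for Fc receptor and ITAM signalling and 22.2% for complement.

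**Figure D3:**
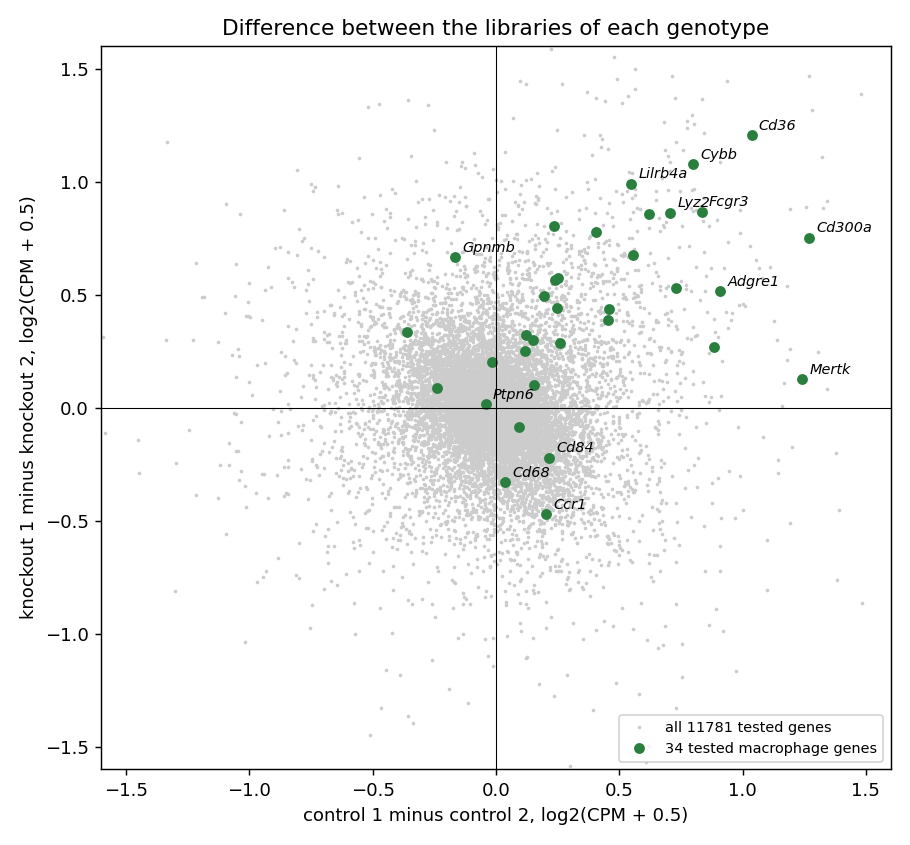
Difference between the libraries of a genotype on the log2(CPM + 0.5) scale, knockout 1 minus knockout 2 on the vertical axis and control 1 minus control 2 on the horizontal axis; green points are the 34 tested macrophage genes and grey points all 11781 tested genes, of which 26 lie outside the limits of 1.6. Of the green points, 25 lie in the upper right quadrant and 0 in the lower left.

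The replicate numbers are names in the labels and no source says that they pair libraries, so the like direction in both genotypes is a description of these 4 libraries. Across the 11781 tested genes the differences in the knockouts and in the controls had a correlation of −0.002, and across the 34 macrophage genes, which are not independent replicates and share the same libraries, it was 0.486. All 4 libraries carry the same batch value in the labels. With each library left out in turn, the median log2 fold change of the 34 was −0.13 without knockout 1, 0.24 without knockout 2, 0.22 without control 1 and −0.11 without control 2; in each of these fits 0 of the 34 passed. Unadjusted limma p under 0.05 numbered 6 of 34 without knockout 1 (7.13% of all genes tested there), 7 without knockout 2 (6.05%), 3 without control 1 (3.53%) and 0 without control 2 (3.41%).

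Other gene groups moved with these differences in part. The 12 osteoclast markers, all tested, were lower in knockout 1 than in knockout 2 in 12 of 12, while control 1 was above control 2 in 11 of 12, so macrophage and osteoclast genes went opposite ways between the knockouts and the same way between the controls. Their sum was 61224 and 75884 CPM in the knockouts and 63242 and 60249 CPM in the controls. Against the mean of the controls, the median of the 34 macrophage genes was 0.24 and −0.13 log2 units in the knockouts and 0.12 and −0.12 in the controls. The dendritic cell list, with 6 of 12 markers in the table, followed library 1 as the macrophage genes did, with a summed level of 279 and 144 CPM in the knockouts and 218 and 139 CPM in the controls. Most of that sum was Itgax, which macrophages also express, at 176 and 73.3 CPM in the knockouts and 148 and 84.6 CPM in the controls, and of the 5 tested markers 4 were higher in library 1 in both genotypes. Cd74, the invariant chain of class II histocompatibility molecules, was at 79.3 and 52.3 CPM in the knockouts and 50.5 and 41.2 CPM in the controls (log2 fold change 0.49, limma adjusted p = 0.983), and was the 1 marker of the 5 at an unadjusted p under 0.05. The class II genes H2-Aa, at 7.26 and 6.20 CPM in the knockouts and 6.17 and 3.64 CPM in the controls, and H2-Ab1, at 9.70 and 6.58 CPM against 8.90 and 5.32 CPM, were also higher in library 1. Zbtb46, a defining factor of dendritic cells, did not follow library 1 in the controls, at 5.02 and 4.67 CPM in the knockouts and 3.83 and 4.27 CPM in the controls. Both knockouts were above both controls for Cd74, H2-Aa and Zbtb46, 3 of the 5 tested, against 16.5% of all tested genes. The same held for Batf3, which was not tested. Batf3 was at 1.58 and 0.707 CPM in the knockouts and 0.325 and 0.280 CPM in the controls. The control values lay near the floor of 3 reads, which was 0.195 CPM in control 1 and 0.210 CPM in control 2. Counting error therefore weighs heavily on Batf3. Neutrophil markers, 12 of 15 in the table, summed to 63.3 and 62.2 CPM in the knockouts and 55.5 and 96.0 CPM in the controls, with control 2 the highest library. The mitochondrially encoded share of the signal was 1.38% and 2.74% in the knockouts and 3.13% and 2.27% in the controls. Whether cell makeup or mitochondrial share had a part in the library differences was not tested.

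**Figure D4:**
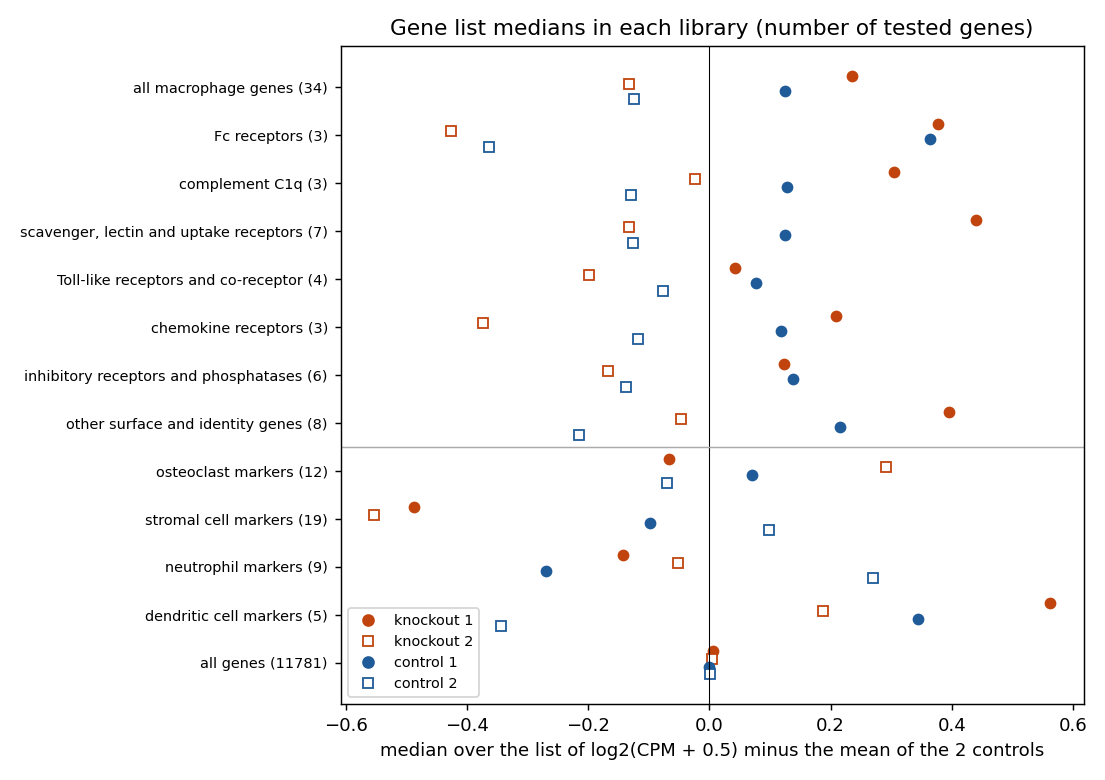
Median over each gene list of log2(CPM + 0.5) minus the mean of the 2 controls, for each library; orange marks are knockout and blue marks control libraries, filled circles library 1 and open squares library 2, and the number of tested genes is in brackets. Control marks mirror each other around 0 by construction; the macrophage groups all have library 1 above library 2 in both genotypes, and the stromal cell markers have both knockouts below both controls.

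Of the markers of other cell types, those of stromal, fibroblast and osteoblast cells had both knockouts below both controls in their sum. Of 21 listed, 19 were tested, with 1, Fbn1, which encodes fibrillin-1, passing in limma (14 genes, 0.119% of all tested genes, were called lower) and 10 at an unadjusted p under 0.05, all lower (3.55% of all tested genes were lower at that level). For the same 19 genes, edgeR called 1, DESeq2 called 9 (0.535% of all tested genes), and limma with the replicate block called 8 (0.755%). Their summed level was 1729 and 1558 CPM in the knockouts and 2362 and 2906 CPM in the controls. This list was chosen with earlier results of these data known, so its counts beside all genes are a description. B cell markers had 2 of 10 in the table, T and NK cell markers 2 of 11, mast cell and basophil markers 1 of 8, erythroid and megakaryocyte markers 5 of 11 and endothelial markers 4 of 9, with summed levels of at most 13.9 CPM in any library.

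In the wider pathways around these genes limma also called 0. Of 25 further complement genes, 18 were tested, 0 passed in limma and in edgeR, and 1 passed in DESeq2, which called 0.535% of all tested genes. Of the 18, 2 had an unadjusted limma p under 0.05, both higher in the knockouts, against 4.9% of all tested genes in either direction. The gene called by DESeq2 was Cd59a, an inhibitor of the membrane attack complex, at 118 ± 16.2 CPM in the knockouts and 74.9 ± 0.46 CPM in the controls (log2 fold change 0.64, SE 0.11, limma adjusted p = 0.159, DESeq2 adjusted p = 0.0025). Limma with the replicate block also called Cd59a alone of the 18 (adjusted p = 0.013). The other of the pair, Cfp, which encodes properdin, the stabiliser of the alternative pathway, was at 106 ± 1.16 CPM in the knockouts and 82.4 ± 12.9 CPM in the controls (limma adjusted p = 0.833). C3, the central complement protein, was at 9.63 ± 1.401 CPM in the knockouts and 12.7 ± 2.01 CPM in the controls (limma adjusted p = 0.9998). All 20 genes of Fc receptor and ITAM signalling were tested, with 0 at an unadjusted p under 0.05 and a median log2 fold change of 0.01. Tyrobp, the adaptor DAP12, was at 309 ± 23.4 CPM in the knockouts and 274 ± 1.51 CPM in the controls.

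Among 16 tested scavenger and efferocytosis genes of 23 listed, 0 passed and 3 had an unadjusted limma p under 0.05, all with lower values in the knockouts, where 3.55% of all tested genes were lower at that level. Lrp1, a large endocytic receptor, was at 398 and 262 CPM in the knockouts, against 476 and 408 CPM in the controls (log2 fold change −0.45, adjusted p = 0.9998). Axl, a TAM-family kinase like Mertk, was at 29.0 ± 7.25 CPM in the knockouts and 38.4 ± 4.07 CPM in the controls (log2 fold change −0.42, adjusted p = 0.9998). Gulp1, an adaptor of engulfment, was at 0.81 ± 0.07 CPM in the knockouts and 1.80 ± 0.62 CPM in the controls. It had 13 and 14 reads in the knockouts and 21 and 32 reads in the controls. Only its control values reached 1 CPM, so it entered the test through the group where it was higher. Its place in the count of 3 is therefore no free test of direction. Its unadjusted p was 0.026 in edgeR and 0.103 in DESeq2. Of 18 macrophage transcription factor genes, 16 were tested with 0 at an unadjusted p under 0.05, a median log2 fold change of −0.06 and 4 positive. The 6 genes of the phagocyte NADPH oxidase, which partner with Cybb, were all tested with 0 at an unadjusted p under 0.05, and their log2 fold changes lay between −0.07 and 0.11.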

How the data were processed

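Poly(A) RNA of 4 libraries, 2 per genotype, was analysed. Per the submitters' processing notes, reads were handled with STAR, featureCounts (Subread) and edgeR on GRCm38 (mm10). Their versions and strand setting are not stated. The authors deposited a normalised signal per gene and library. Every value was a whole multiple of the smallest positive value of its column (100% within 0.001 reads), which gave back whole reads, and edgeR's TMM-scaled CPM of these reads differed from the deposited signal by at most 4.91e-11; the signal is therefore read as CPM.

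Genes that reached 1 CPM in 2 or more libraries were tested with limma-trend on the log2(CPM + 0.5) scale, 2-sided, with Benjamini-Hochberg adjustment over all 11781 tested genes. Fold changes on this scale understate those of low genes. Exon lengths and positions came from GENCODE M21 on GRCm38, where 12685 of 12799 symbols had a single match, and promoters from RefSeq on GRCm38.p6. The macrophage genes, the further lists and their grouping by role were chosen with earlier results of these data known. All members were described, those of smallest p, highest and lowest level and outside the filter in every library, and up to 3 genes of smallest p per further list, of which the text gives a part. Alternatives were other pseudocounts, filters, scalings, variance models and tools, a replicate block and each library left out. The steps were tested on simulated data. P-values set the genotype difference against the spread between libraries of a genotype, with variance estimates that borrow from the other tested genes. The Poisson intervals cover counting error only. Same-numbered libraries did not deviate together over all genes. Every pair of libraries differed beyond sampling noise in a chi-square of reads. Tests used limma 3.58.1, DESeq2 1.42.0 and edgeR 4.0.16 in R 4.3.3. Tables and figures used pandas 2.3.3, SciPy 1.17.1 and matplotlib 3.10.9 in Python 3.11.15.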

Additional observations from a re-analysis of the deposited data

How the results depend on the processing

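The count of macrophage genes passing was 0 under every alternative run, and their median log2 fold change lay between 0.006 (plain library totals) and 0.04 (a filter of 5 CPM) with all 4 libraries; with a library left out it lay between −0.133 and 0.236. The number of genes called over the whole table was 19 with limma; it was 63 with DESeq2 and 4 without the intensity trend, and 6 to 93 with a library left out; the cause was not tested. The replicate numbers are not known to pair the libraries. With the replicate block, 89 genes were called over the whole table and 0 of the 34 macrophage genes, with 1, Mertk, at an unadjusted p under 0.05. The deviations of same-numbered libraries had a correlation of −0.0016 over 11781 genes. Of the 34 genes, 3 changed the sign of the fold change with plain library totals, 3 with edgeR and 2 with DESeq2, and 9 to 13 with a library left out. DESeq2 gave no adjusted p for Fcgr1, Ccr2 and Cd33. Per kb of the longest transcript in place of merged exons, the median level of the 36 genes was 10.997 CPM per kb. Depth limits Fcgr4 and Cd86, with 11 to 26 reads a library.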
